A study of Mus musculus with 8 samples.

Results

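Disease-associated microglia are a state that these brain macrophages enter around amyloid plaques, and 10 genes whose products that state places on the cell surface or releases are described here: Axl, Itgax, Clec7a, Gpnmb, Cd9, Cd63, Spp1, Igf1, Cst7 and Lgals3. They were chosen by name from a gene list, with earlier results of these data known, out of 21887 protein-coding genes. All 10 were found in the RefSeq annotation of GRCm38. For each gene, every listed peak of histone H4 lactylated at lysine 12 (H4K12la) was taken that overlapped the gene span, extended by 10 kb on both sides, by 1 base or more. H4K12la was profiled by CUT&Tag, in which a transposase tethered by an antibody cuts and tags the DNA around the mark. The study asked which genes carry the mark in the brains of 5XFAD and WT mice. It holds 8 libraries in 4 groups of 2: 5XFAD microglia, WT microglia, 5XFAD total cells and WT total cells. All came from perfused whole brains without cerebellum, dissociated and cleared of myelin, and the microglia were then captured with beads against CD11b. 5XFAD mice carry human transgenes with mutations of familial Alzheimer's disease, driven by the neuronal Thy1 promoter, so the amyloid in this model comes from neurons. The sources used here give no age, sex, strain background or pooling. Nothing says that both libraries of a group stem from different animals, so the p-values below measure only the spread between these libraries, which may be technical.

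As background, microglia near plaques lower many of their resting genes and raise a set for phagocytosis, lysosomal digestion and lipid handling, and the later part of this switch depends on the receptor TREM2. The genes here include its most used markers. Histone lactylation is an acyl mark that depends on lactate, the end product of glycolysis, and is usually found at active promoters and enhancers.

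The lists differed in length and in the width of their peaks. 5XFAD microglia had 29947 and 41783 peaks and WT microglia had 22300 and 33500. 5XFAD total cells had 32967 and 22807 peaks and WT total cells had 25271 and 22543. The median peak was 580 to 735 bp wide in the 4 microglia libraries, against 287 to 366 bp in the 4 total cells libraries. The bases covered by all peaks came to 22.1 and 36.3 Mb in 5XFAD microglia, 15.3 and 26.1 Mb in WT microglia, 14.8 and 8.61 Mb in 5XFAD total cells, and 9.61 and 7.78 Mb in WT total cells. Each peak list holds 1 authors' score per peak and no read counts, so the sequencing depth is unknown and a gene without a peak is a gene with none listed. Values below are covered bases, the bases of a gene's window that lie under a listed peak, and they move with the length and peak width of the list. In these bulk libraries, more cells of a type and more mark per cell cannot be told apart.

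The number of the 10 genes with a listed peak lay between 6 and 10 in the microglia libraries and between 3 and 6 in the total cells libraries, with WT 1 of microglia and both 5XFAD libraries of total cells equal at 6. Of the 10 genes, 8 and 10 had a peak in 5XFAD microglia, 6 and 8 in WT microglia, 6 and 6 in 5XFAD total cells, and 5 and 3 in WT total cells. Among all protein-coding genes the share with a peak lay between 49.8% and 62.3% in the microglia libraries and between 52.4% and 59.4% in the total cells libraries. Cd9 and Cd63 had a peak in all 8 libraries, as did 33.9% of all genes, and Gpnmb had one in a single library. The windows held 108 peaks in microglia and 41 in total cells. Their median width was 686 bp for microglia, against 344 bp for total cells, close to the widths of the whole lists. Their authors' scores sat near the middle of their own lists, at a median percentile of 50.1 in microglia and 48.2 in total cells.

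**Figure D1:**
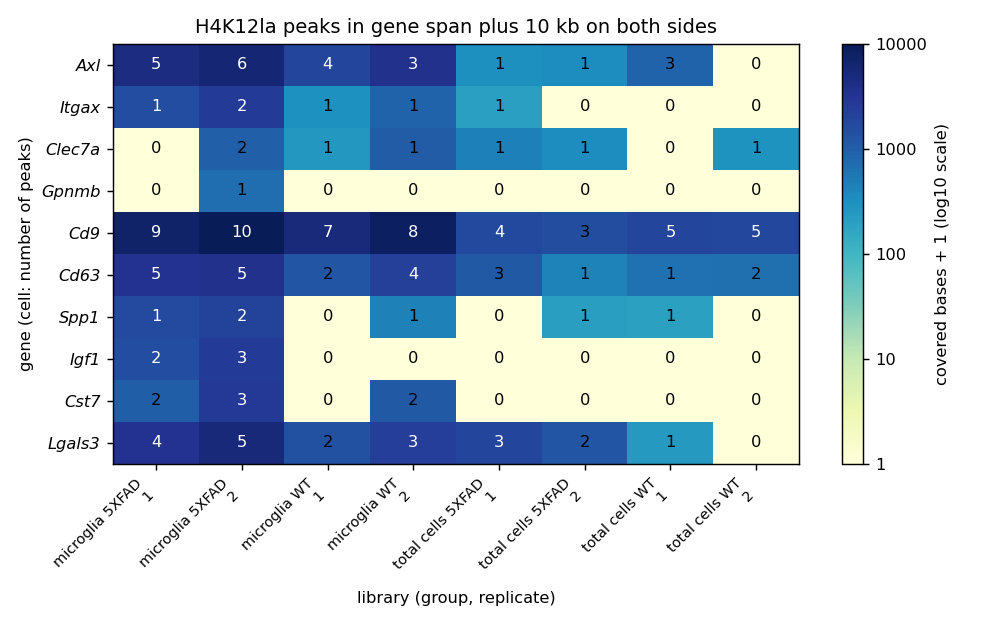
Covered bases (colour, log scale) of each gene window (rows, ordered by role) in each of the 8 libraries (columns). The number of listed peaks is written in each cell. Cd9 is covered in every library, with 9668 bp in microglia 5XFAD 2, whereas Igf1 is covered only in the 5XFAD microglia libraries, by 1593 and 2602 bp.

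Among the surface receptors, Axl encodes a receptor tyrosine kinase that binds bridging proteins on dying cells and drives their engulfment. Its window on chromosome 7 was covered by 4502 and 5639 bp in 5XFAD microglia, 1972 and 3568 bp in WT microglia, 318 and 344 bp in 5XFAD total cells, and 869 and 0 bp in WT total cells. Every microglia library lay above every total cells library, and both 5XFAD microglia libraries lay above both WT microglia libraries. Most of the coverage in each microglia library lies in the 2 regions most downstream of Axl. Both are inside the neighbouring gene Hnrnpul1, and one of them is 712 bp from the Hnrnpul1 start site. With no flank, Axl was no longer higher in every microglia than in every total cells library. Both 5XFAD microglia libraries still lay above both WT microglia libraries. Inside Axl, the region chr7:25786741-25787798, centred 1464 bp after the start site, was covered by 907 and 1058 bp in 5XFAD microglia, 476 and 865 bp in WT microglia and 0 bp in all 4 total cells libraries. A peak over the start site itself was listed in 1 library, microglia 5XFAD 2, and covered 600 bp. The promoter segment that it touches is shown here, with capitals on the letters GAGGAAG (a PU.1-type motif, which here reads CTTCCTC because it is on the other strand) and GGGCGG (a GC box). PU.1 is the lineage factor of myeloid cells.
Axl, chr7:25788684-25788983, minus strand, GRCm38.p6: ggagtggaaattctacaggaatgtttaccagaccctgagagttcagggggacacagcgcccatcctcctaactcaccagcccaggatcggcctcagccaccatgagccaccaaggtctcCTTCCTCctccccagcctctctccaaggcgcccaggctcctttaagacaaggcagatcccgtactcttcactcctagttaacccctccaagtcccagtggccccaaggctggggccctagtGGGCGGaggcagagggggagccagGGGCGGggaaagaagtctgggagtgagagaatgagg

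Itgax encodes CD11c, an integrin chain that is low in resting microglia and a common label of the plaque-associated ones. It was covered by 1587 and 2638 bp in 5XFAD microglia, 315 and 866 bp in WT microglia, 201 and 0 bp in 5XFAD total cells, and 0 and 0 bp in WT total cells. The 4 microglia libraries lay above the 4 total cells libraries, and the 5XFAD microglia libraries lay above the WT ones without overlap. Most of it was 1 region over the start site, chr7:128128626-128130413, whose peak was 1587 and 1788 bp wide in 5XFAD microglia, 315 and 866 bp wide in WT microglia and 201 bp wide in total cells 5XFAD 1. The peak of microglia WT 1 lay upstream of the start site, from -555 to -241 bp. Within their own lists, these peaks stood at the 84.5th and 79.4th score percentile in 5XFAD microglia, the 8.0th and 57.2nd in WT microglia and the 16.4th in total cells 5XFAD 1. Ranks from lists of unequal length show no change between libraries. The segment below was touched by a peak in 4 microglia libraries, in microglia WT 1 by 10 bp only, and in 1 total cells library. Its capitals mark TGANTCA, the motif type of the AP-1 factors, which are induced by many stimuli.
Itgax, chr7:128129300-128129599, plus strand, GRCm38.p6: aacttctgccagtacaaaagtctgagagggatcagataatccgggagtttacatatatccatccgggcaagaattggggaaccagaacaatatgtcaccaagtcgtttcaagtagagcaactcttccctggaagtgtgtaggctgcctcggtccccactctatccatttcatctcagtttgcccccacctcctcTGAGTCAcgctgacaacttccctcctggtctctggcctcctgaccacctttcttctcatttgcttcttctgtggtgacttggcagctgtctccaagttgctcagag

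Clec7a encodes dectin-1, a receptor for beta-glucans that signals through SYK and is raised on plaque-associated microglia. It was covered by 0 and 946 bp in 5XFAD microglia, 256 and 1040 bp in WT microglia, 464 and 349 bp in 5XFAD total cells, and 0 and 291 bp in WT total cells. The groups overlapped in microglia, and in total cells both 5XFAD libraries lay above both WT libraries. The region present in most libraries, chr6:129451350-129452630, reaches into Clec1a at the far end of the window and not into the Clec7a gene span. Inside Clec7a, 1 peak of 647 bp was listed in microglia 5XFAD 2. Gpnmb, a transmembrane glycoprotein of lysosomes and the cell surface, had 1 peak of 686 bp in microglia 5XFAD 2, centred 892 bp after its start site, and none in the other 7 libraries.

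The tetraspanins Cd9 and Cd63 organise partner proteins in membranes, Cd9 mainly at the cell surface and Cd63 in late endosomes and exosomes. Cd9 was covered by 7034 and 9668 bp in 5XFAD microglia, 4893 and 8124 bp in WT microglia, 1771 and 1497 bp in 5XFAD total cells, and 1908 and 1822 bp in WT total cells. Microglia and total cells did not overlap, while the 5XFAD and WT microglia libraries did. In total cells both 5XFAD libraries lay below both WT libraries, an order that turned with stricter score limits. Its window held 11 merged regions, made by joining peaks of all 8 lists that overlap. One of them, chr6:125489590-125490969, had a peak in every library, as did 7.76% of the 62570 merged regions in coding gene windows. The neighbouring regions chr6:125468573-125469504 and chr6:125470399-125472282, both inside the gene, were marked in all 4 microglia libraries but none of total cells. No peak in any library overlapped the Cd9 promoter segment.

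Cd63 was covered by 3387 and 3533 bp in 5XFAD microglia, 1206 and 2238 bp in WT microglia, 1152 and 424 bp in 5XFAD total cells, and 632 and 665 bp in WT total cells. All 4 microglia libraries exceeded all 4 total cells libraries, and the 5XFAD microglia libraries exceeded the WT ones. Part of the 5XFAD microglia coverage lies at a neighbour. The downstream regions chr10:128917605-128918636 and chr10:128919242-128919882 overlap Rdh5, and the latter covers its start site. They were covered by 489 and 641 bp in microglia 5XFAD 1 and by 880 and 397 bp in microglia 5XFAD 2. Every other library had 0 bp there. With no flank, both orders held at Cd63. The preparations differed in where along the gene the peaks lay. The region over the RefSeq start site, chr10:128908976-128909762, was covered by 787 and 787 bp in 5XFAD microglia, 416 and 757 bp in WT microglia and 0 bp in each total cells library. The region across the outer edge of the annotated span, chr10:128895913-128896671, was covered by 0 and 0 bp in 5XFAD microglia, 0 and 360 bp in WT microglia, 586 and 424 bp in 5XFAD total cells, and 632 and 461 bp in WT total cells. It was the only merged region of the 10 windows that was lower in every microglia than in every total cells library, a pattern that 1.56% of all merged regions had. The promoter segment at the start site was under a peak in the 4 microglia libraries but in none of total cells, which holds for 1.08% of the 21263 promoter segments of coding genes. In it the capitals mark the PU.1-type motif on the other strand.
Cd63, chr10:128909095-128909394, plus strand, GRCm38.p6: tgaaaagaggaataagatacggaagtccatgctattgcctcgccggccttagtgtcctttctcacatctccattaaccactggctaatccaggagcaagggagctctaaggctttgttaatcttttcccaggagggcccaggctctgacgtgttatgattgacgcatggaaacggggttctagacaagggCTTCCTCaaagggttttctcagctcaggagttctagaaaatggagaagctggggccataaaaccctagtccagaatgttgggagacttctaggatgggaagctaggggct

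**Figure D2:**
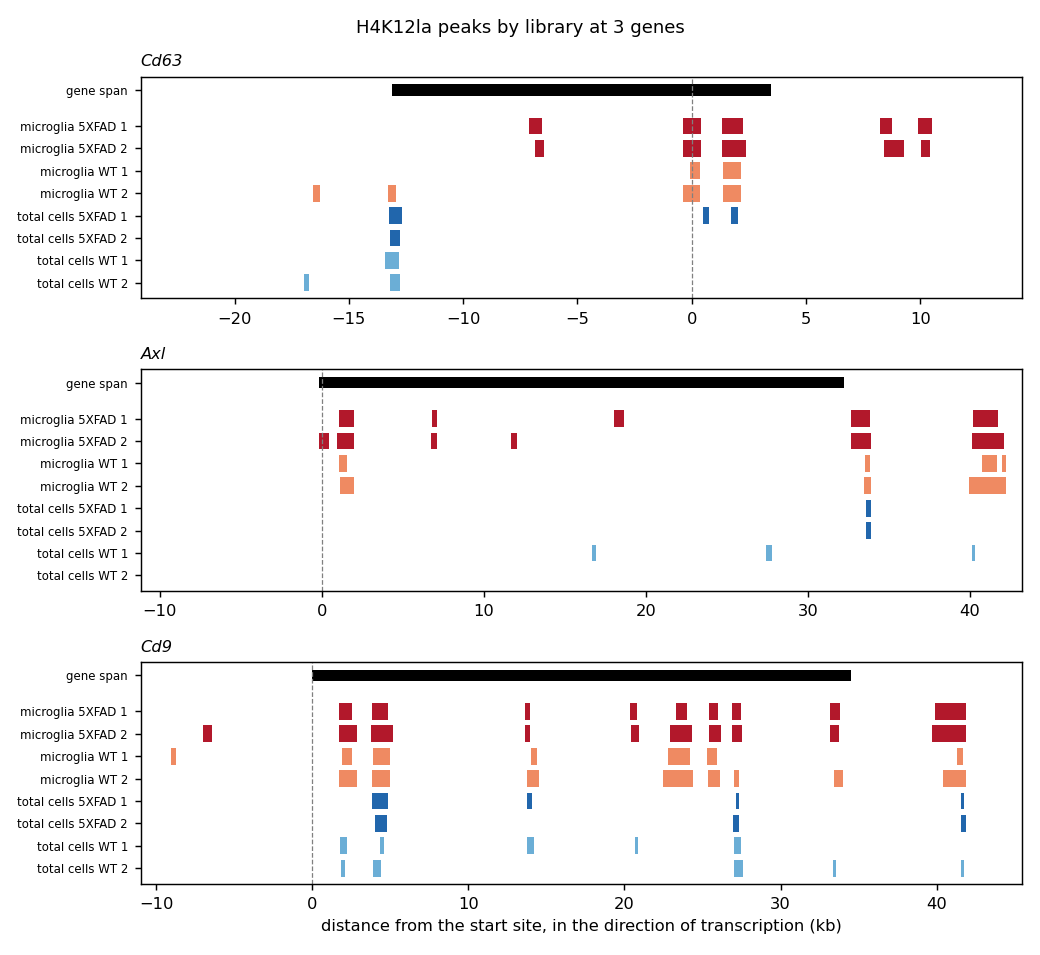
Listed peaks (bars, to scale) around Cd63, Axl and Cd9 in the 8 libraries, 1 row each, with distance from the start site in kb on the horizontal axis. At Cd63 the 4 microglia rows carry a bar at the start site and the 4 total cells rows carry none there.

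Among the secreted products, Spp1 is osteopontin, a phosphoprotein that binds integrins and CD44. It was covered by 1704 and 2099 bp in 5XFAD microglia, 0 and 445 bp in WT microglia, 0 and 211 bp in 5XFAD total cells, and 193 and 0 bp in WT total cells. The 5XFAD microglia libraries stood above the other 6, which overlapped one another. Most of the coverage was 1 region upstream of the gene, chr5:104425757-104427485, centred at -8490 bp from the start site, at the 91.0th and 82.4th score percentile of the 5XFAD microglia lists and the 51.6th of microglia WT 2. The narrower peaks there in total cells 5XFAD 2 and total cells WT 1 stood at the 84.9th and the 64.1st. No peak in any library overlapped either Spp1 promoter segment.

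Igf1 encodes insulin-like growth factor 1, which microglia release and which acts on neurons and on cells that make myelin. It was covered by 1593 and 2602 bp in 5XFAD microglia and by 0 bp in each of the other 6 libraries. A pair of regions carried this pattern in both 5XFAD microglia libraries. The first, chr10:87857320-87858712, crosses the outer edge of the span and overlaps the antisense gene Igf1os, with 1270 and 1393 bp. The second, chr10:87861812-87862461, is centred 1026 bp after the start site and also overlaps Igf1os, with 323 and 650 bp. A further region of 559 bp, far inside the gene, was listed in microglia 5XFAD 2 alone. The scores of these peaks were not high within their lists, with percentiles from 25.8 to 51.7. The pair of regions flanks the promoter segment without touching it. The segment is the only one of the 12 that holds both the PU.1-type and the AP-1-type letters, which are the first and second runs of capitals.
Igf1, chr10:87860861-87861160, plus strand, GRCm38.p6: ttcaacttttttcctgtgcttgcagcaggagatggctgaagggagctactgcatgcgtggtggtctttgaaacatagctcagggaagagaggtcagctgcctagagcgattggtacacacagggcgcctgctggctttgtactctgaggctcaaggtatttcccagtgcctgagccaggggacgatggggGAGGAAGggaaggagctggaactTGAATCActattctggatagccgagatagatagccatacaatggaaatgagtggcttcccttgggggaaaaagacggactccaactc

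Cst7 encodes cystatin F, an inhibitor of lysosomal cysteine proteases. It was covered by 986 and 2694 bp in 5XFAD microglia, 0 and 1123 bp in WT microglia, and 0 bp in each total cells library. The 5XFAD and WT microglia ranges overlapped, since WT 2 lay above 5XFAD 1. Both of its main regions lie at or before the start site, and 3 of the 4 microglia libraries had a peak in each. In microglia 5XFAD 2 the nearer peak ran over the promoter segment, whose capitals mark the AP-1-type letters just before the start site.
Cst7, chr2:150570165-150570464, plus strand, GRCm38.p6: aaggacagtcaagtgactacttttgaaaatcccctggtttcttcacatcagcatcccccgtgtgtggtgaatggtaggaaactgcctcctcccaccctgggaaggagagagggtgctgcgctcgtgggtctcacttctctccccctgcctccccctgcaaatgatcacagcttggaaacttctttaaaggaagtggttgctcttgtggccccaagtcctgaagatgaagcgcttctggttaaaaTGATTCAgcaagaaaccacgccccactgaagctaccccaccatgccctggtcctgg

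Lgals3 is galectin-3, a lectin that binds beta-galactosides and has been reported as a ligand of TREM2. It was covered by 3357 and 5134 bp in 5XFAD microglia, 1420 and 2362 bp in WT microglia, 1935 and 1253 bp in 5XFAD total cells, and 242 and 0 bp in WT total cells. Both 5XFAD libraries lay above both WT libraries in each preparation, the only one of the 10 genes with that order in microglia and in total cells. At the start site, chr14:47373507-47374744 was covered by 919 and 1238 bp in 5XFAD microglia, 523 and 649 bp in WT microglia, 476 and 656 bp in 5XFAD total cells, and 0 and 0 bp in WT total cells. Coverage also came from a region inside the neighbouring gene Dlgap5, chr14:47394656-47396378, with 1691 and 1553 bp in 5XFAD microglia, 1057 and 834 bp in WT microglia, 1470 and 597 bp in 5XFAD total cells, and 242 and 0 bp in WT total cells. The region runs past the window end at chr14:47396167, and its bases beyond that were left out of the gene's coverage. It exceeded the start-site region in each library with a peak there except total cells 5XFAD 2. Its peaks stood at the 96.3rd and 98.9th score percentile of the 5XFAD microglia lists, the highest of the 10 windows. In microglia the promoter segment was under a peak in both 5XFAD libraries but not in WT, as were 2.69% of all segments, and the same held in total cells, as for 2.52%. The WT microglia peaks of the start-site region began 112 and 100 bp after the start site, past the end of the segment. The segment has 67.0% GC and 18 CpG dinucleotides, against medians of 56.3% and 13 over all segments, and its capitals mark 2 GC boxes.
Lgals3, chr14:47373610-47373909, plus strand, GRCm38.p6: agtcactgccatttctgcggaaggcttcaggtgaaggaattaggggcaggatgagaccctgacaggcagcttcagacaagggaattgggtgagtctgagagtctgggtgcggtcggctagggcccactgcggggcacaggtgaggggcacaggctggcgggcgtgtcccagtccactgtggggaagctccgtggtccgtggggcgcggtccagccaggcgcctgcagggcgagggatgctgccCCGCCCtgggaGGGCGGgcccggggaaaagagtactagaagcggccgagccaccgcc

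**Figure D3:**
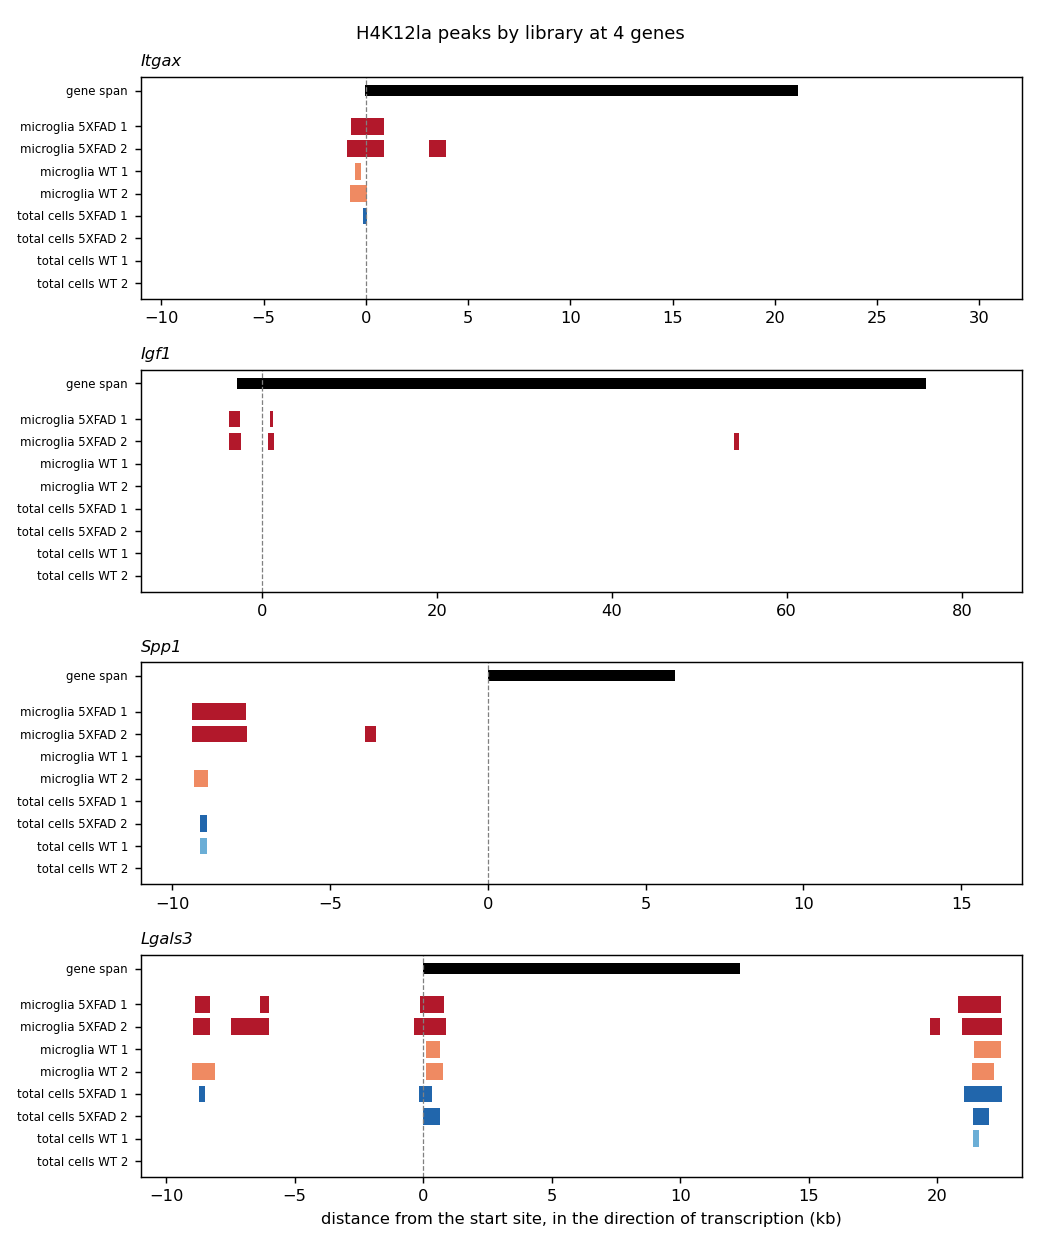
Listed peaks (bars, to scale) around Itgax, Igf1, Spp1 and Lgals3 in the 8 libraries, 1 row each, against distance from the start site in kb. Both 5XFAD microglia rows carry wider bars than the WT microglia rows around the Itgax start site, and bars at Igf1 appear in no other row.

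The first comparison asks how the enriched cells differ from the whole cell suspension. Covered bases were higher in every microglia library than in every total cells library at 4 of the 10 genes, Axl, Itgax, Cd9 and Cd63, against 21.9% of all coding genes, and lower at none, against 1.64%. None of the 10 was marked in all microglia lists and absent from all total cells lists, a pattern of 0.937% of all genes. All 10 mean differences were above 0, with a median of 1251 bp, against a median of 575 bp over the 15686 genes with a peak in any library, 79.5% of which were above 0. Cd9 averaged 7430 ± 2007 bp over the microglia libraries and 1750 ± 178 bp over the total cells libraries (SD, n = 4 each), a difference of 5680 bp. Axl averaged 3920 ± 1551 bp over microglia, against 383 ± 360 bp over total cells, a difference of 3538 bp. In a two-sided exact permutation test over the 70 arrangements of the libraries, the 4 genes had p = 0.0286, the smallest it can give, with a Benjamini-Hochberg adjusted p of 0.0869. At that unadjusted level stood 5157 genes, or 32.9%, and no gene passed after adjustment (0.0%). Lgals3 had an exact permutation p of 0.0571 and the other 5 genes 0.143 or more. With every peak set to 300 bp around its midpoint, 1 of the 10 genes, Cd9, kept this order, against 5.36% of all genes. With no flank, Cd9 and Cd63 kept it, against 15.8%. With coverage divided by the total of each list, Axl, Itgax and Cd9 did, against 8.57%. Without microglia WT 1 the count was 7, against 34.4% of all genes.

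**Figure D4:**
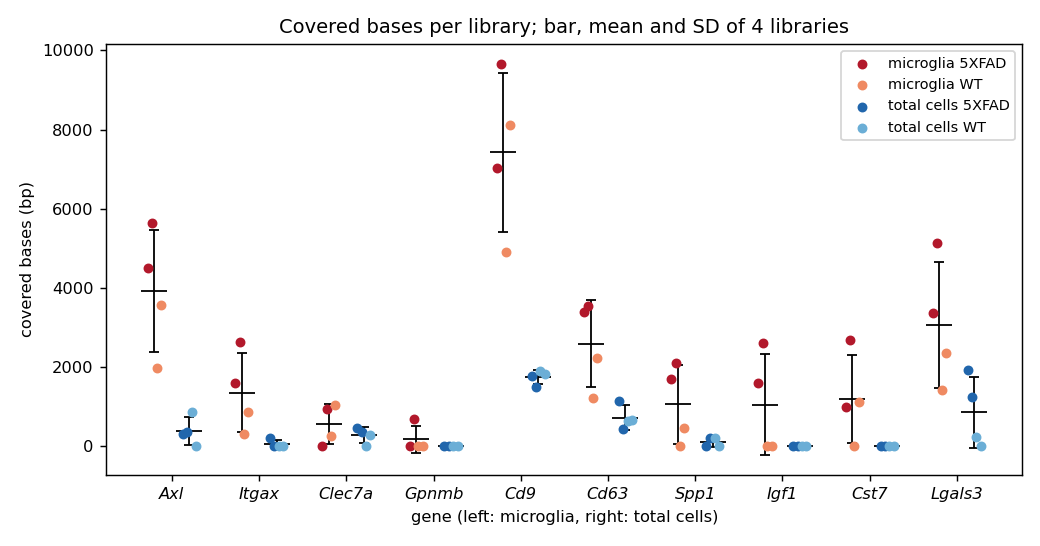
Covered bases of each gene in each library (points), with microglia left of total cells, and the mean ± SD of the 4 libraries of a preparation (bars). The preparations do not overlap at Axl, Itgax, Cd9 and Cd63, and they overlap at Clec7a, Spp1 and Lgals3. At Gpnmb, Igf1 and Cst7 some microglia libraries tie with the total cells libraries at 0 bp.

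The second comparison asks how 5XFAD differs from WT within a preparation. In microglia, covered bases were higher in both 5XFAD libraries than in both WT libraries at 6 of the 10 genes, Axl, Itgax, Cd63, Spp1, Igf1 and Lgals3, against 21.3% of all genes, and lower at none, against 1.7%. Igf1 alone was marked in both 5XFAD lists and absent from both WT lists, against 2.39% of all genes. The difference was above 0 at 9 genes and below 0 at Clec7a, with a median of 1708 bp, against a median of 410 bp over all genes tested, 75.7% of which were above 0. It was 2354 bp at Lgals3, 2300 bp at Axl, 2098 bp at Igf1, 1738 bp at Cd63, 1679 bp at Spp1 and 1522 bp at Itgax. With lists cut to the length of the shortest, the order held at 5 genes, against 18.3% of all genes, and with coverage divided by the total of each list at 7, against 15.3%. Keeping only the higher-scoring 50% of each list left 3, against 16.1%. With every peak set to 300 bp, 5 genes had this order, against 11.3%: Axl, Cd9, Cd63, Igf1 and Lgals3. Itgax and Spp1 thus lost it and Cd9 gained it. With no flank 5 genes had it, against 17.2%, and Spp1 was not among them. Clec7a was lower in both 5XFAD than in both WT libraries with lists of equal length, against 5.29% of all genes. It was also lower in the higher-scoring 50%, against 2.06%. All WT microglia coverage of the Clec7a window was the region that reaches into Clec1a, outside the Clec7a span. Leaving out 1 library gave counts from 6 to 9, and the share of all genes then lay between 21.3% and 52.0%, with 9 genes and 52.0% without 5XFAD 1 and 8 genes and 45.8% without WT 2.

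In total cells, covered bases were higher in both 5XFAD libraries at Clec7a and Lgals3, against 19.2% of all genes, and lower at Cd9, against 6.27%. The Cd9 direction turned when low scores were left out. With a score of at least 50, Cd9 had 1241 and 1162 bp in 5XFAD total cells and 732 and 820 bp in WT total cells, and it was also higher in 5XFAD in the higher-scoring 50% of each list. No gene of the 10 was marked in both 5XFAD lists and absent from both WT lists, against 2.81% of all genes. The median difference over the 10 genes was 4.5 bp, against 120 bp over all genes tested. Over both preparations, an exact permutation test within preparations allows 36 arrangements and a smallest two-sided p of 0.0556, so it cannot reach 0.05. Lgals3 reached that smallest value, with an adjusted p of 0.627, and the other 9 genes had p of 0.167 or more. No gene of the 15686 had an unadjusted p at or under 0.05. Whether the difference between genotypes itself differs between microglia and total cells was not tested.

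In merged regions, the windows of the 10 genes held 47, of which 23 lay inside a gene and 5 over a listed start site. Both 5XFAD microglia lists and no WT microglia list marked 8 of the 47, against 6.06% of all regions, and 19 had more covered bases in both 5XFAD microglia libraries, against 17.3%. All microglia lists and no total cells list marked 4 regions, against 4.23%: 1 in Axl, 2 in Cd9 and the Cd63 start site. In total cells, both 5XFAD lists and no WT list marked 2 regions, against 5.51%. These were the region of Axl near Hnrnpul1 and the Lgals3 start site.

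The promoter letters were searched on both strands from 250 bases before the start site to the end of each 300-base segment, and none of the matches overlap. RefSeq held 12 segments for the 10 genes. The PU.1-type letters GAGGAAG were in those of Axl, Cd63, Igf1 and Spp1, against 13.6% of all coding segments, and the AP-1-type letters TGANTCA in those of Cst7, Gpnmb, Igf1 and Itgax, against 6.99%. GGGCGG was in Axl, Cd9 and Lgals3, against 46.2%, and TATAAA in Clec7a and Spp1, against 12.6%. The E-box CATGTG was in Cd9, against 11.5%, and the E-box CACGTG in none, against 7.84%. Segments with the PU.1-type letters were found both with a peak (Axl, Cd63) and without one (Igf1, Spp1), and so were those with the AP-1-type letters. These matches are descriptions of the sequence and not of binding.

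The genes were set beside 25 other genes of the same state and 10 genes of resting microglia. Of the 25, 16 were higher in every microglia than in every total cells library, against 21.9% of all genes, and 4 were with peaks of fixed width, against 5.36%. In microglia, 9 were higher in both 5XFAD than in both WT libraries, against 21.3%, and Ctsl was lower, against 1.7%. With coverage scaled to the total of each list, 4 were higher, against 15.3%, and 5 were lower, against 2631 of all 21887 genes. Lilrb4a, an inhibitory receptor, had 1970 and 1918 bp in 5XFAD microglia and 0 and 0 bp in WT microglia. Lpl, a lipase, had 1115 and 985 bp in 5XFAD total cells and 0 and 0 bp in WT total cells, and Lyz2 (lysozyme) and Cd52 were likewise marked there in 5XFAD alone. Of the 10 resting genes, 9 were higher in every microglia library, against 21.9%, and 4 were with peaks of fixed width. Between the genotypes in microglia, none was higher in both 5XFAD libraries and none lower. With lists of equal length 2 were higher, against 18.3%, and 2 lower, against 5.29%. With scaled coverage 1 was higher, against 15.3%, and 5 lower, against those 2631 genes of 21887. By presence across the 8 libraries, Itgax had the same pattern as Trem2, Tmem119 and the oligodendrocyte gene Mag, and as 1.06% of all genes. Axl and Lgals3 shared theirs with the vascular gene Flt1 and with 2.65% of all genes. Gpnmb shared its with Cybb and with 0.763%.

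**Figure D5:**
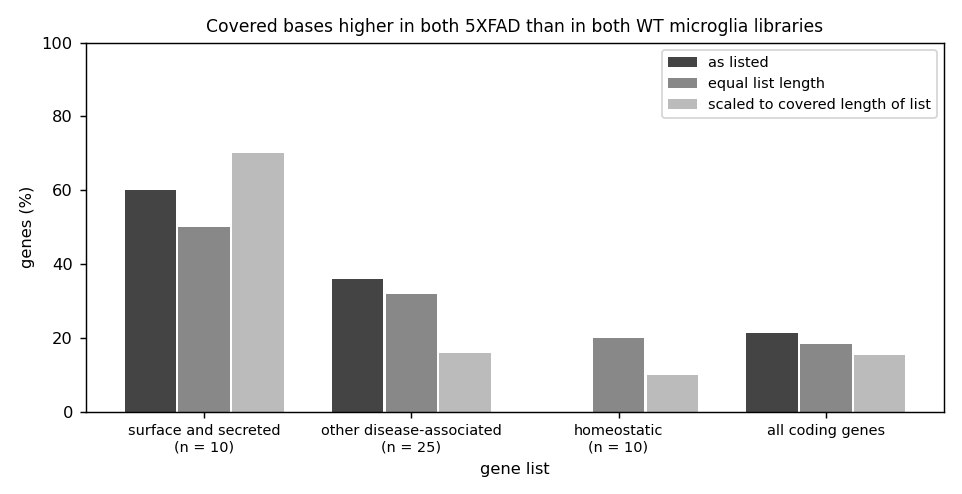
Share of genes (percent, bars from 0) whose covered bases were higher in both 5XFAD than in both WT microglia libraries, for the 10 genes, 25 other genes of the same state, 10 resting genes and all coding genes, with lists as deposited, cut to equal length, or scaled to their total. As deposited, the bars stand for 6 of 10, 9 of 25 and 0 of 10 genes and for 21.3% of all coding genes.

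Markers of the cells themselves were checked in the same way. All 10 resting microglia genes had a peak in every microglia library, and 4 to 9 did in the total cells libraries. Their summed coverage was 38620 and 56583 bp in 5XFAD microglia, 28505 and 49597 bp in WT microglia, 12593 and 6725 bp in 5XFAD total cells, and 4132 and 4069 bp in WT total cells. It was thus higher in 5XFAD than in WT total cells, as Lgals3 was, and its part in that result was not tested. Peaks at markers of other cells were listed in both preparations. Covered bases were higher in every microglia than in every total cells library at 4 of 6 oligodendrocyte and 4 of 5 vascular genes. The same held for 2 of 8 neuronal, 1 of 6 astrocyte and 1 of 8 other leukocyte genes, against 21.9% of all genes. Map2 of neurons alone was lower, against 1.64%. Vascular genes summed to 14376 and 24408 bp in 5XFAD microglia and 13239 and 18485 bp in WT microglia. What these markers add to the preparation results was not tested. In microglia and in total cells, 2 to 3 and 2 to 4 of 8 neuronal genes had a peak, 2 to 5 and 4 to 5 of 6 astrocyte genes, 4 and 3 to 4 of 6 oligodendrocyte genes, 4 and 3 to 4 of 5 vascular genes, and 1 to 3 and 1 to 2 of 8 genes of other leukocytes. Oligodendrocyte genes summed to 16404 and 24435 bp in 5XFAD microglia and 8126 and 11040 bp in WT microglia, without overlap, and their part in the microglia results was not tested. In total cells, oligodendrocyte genes summed to 6182 and 3766 bp in 5XFAD and 2293 and 877 bp in WT, and vascular genes to 7197 and 3305 bp in 5XFAD and 1584 and 1064 bp in WT, also without overlap and not tested. Other leukocyte genes summed to 1270 and 2165 bp in 5XFAD microglia and 1234 and 3863 bp in WT microglia. Most of this was Mrc1, with 885 and 1861 bp in 5XFAD microglia and 1234 and 3154 bp in WT microglia. Mrc1 had 660 and 197 bp in 5XFAD total cells and 0 and 241 bp in WT total cells. Ccr2, S100a9, Cd3e, Ly6c2 and Cd163 were at 0 in all 8 libraries. Snap25, Tubb3, Gad1 and Gad2 of neurons, Aqp4 of astrocytes and Olig2 of oligodendrocytes were at 0 in all 8 as well. Rbfox3 and Slc17a7 of neurons had a peak in every microglia library and were higher there than in every total cells library.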

How the data were processed

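H4K12la CUT&Tag was analysed in 8 mouse brain libraries, grouped by the cell type, genotype and number in their titles. The tools were fastp 0.19.6, Bowtie2 and deepTools and the build was GRCm38 (mm10), per the submitters' processing notes. A caller, threshold or control for the peaks was not given in the sources used here. In all, the authors deposited 1 headerless peak list per library, in which column 4 is a whole-number score of unstated unit, never under 20. The score was used only for percentiles and filters within a list. Without read counts the depth is unknown, and no counting interval was made. No more than 193 exact intervals were shared by any pair of lists.

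Starts were taken as counted from 0 and are printed counted from 1. Spans came from the RefSeq gene table, and strands, start sites and promoter segments from the RefSeq promoter table (both GRCm38.p6). Exons were not used here. Overlapping peaks of a library were merged, clipped to the window and summed. Preparations were compared by exact permutation over 70 arrangements, and genotypes by exact permutation within preparations over 36, with Benjamini-Hochberg adjustment over 15686 genes. The overlap step was tested on simulated intervals. Differences planted in shuffled data were too large to be missed, so their recovery says nothing about smaller ones. Python 3.11.15, NumPy 2.4.6, pandas 2.3.3 and Matplotlib 3.10.9 were used.

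All 10 genes are described. Other genes are named where they overlap a window, share the presence pattern of one of the 10 and belong to a fixed list, or are listed genes of the same state that differ by genotype. The genes and lists were chosen with earlier results of these data known. The values of 1 listed marker gene are not reported here. The alternatives were other flanks, list lengths, score limits, overlap rules, peak widths, scaling, omission of each library and a replicate block. A window of 1000 bases around start sites and a block with crossed numbers were added after seeing the data.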

Additional observations from a re-analysis of the deposited data

Results flagged for a closer look

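In 2 of the 17 sets of 4 libraries tested, 1 library stood far from the other 3 by Dixon's test at the 95% level. Itgax had 201 covered bases in total cells 5XFAD 1 and 0 in the other 3 total cells libraries. Gpnmb had 686 covered bases in microglia 5XFAD 2, the longest list, and 0 in the other 3 microglia libraries. In both cases the other 3 libraries had no listed peak, so any value above 0 in the remaining library would be flagged. The usual rate of about 1 in 20 by chance does not apply to such sets.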

How the results depend on the processing

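Shares in brackets are of all coding genes under the same setting. The count of genes higher in every microglia library, 4 as reported, was 2 with no flank (15.8%), 1 with peaks of fixed width (5.36%), 2 within 1000 bases around start sites (10.8%), and 4 to 7 when 1 library was left out, the 7 without microglia WT 1 (34.4%). The count marked in all microglia lists and no total cells list, 0 as reported, was 1 with lists of equal length (0.937%) and 0 to 1 when 1 library was left out, the 1 without microglia WT 1 (1.58%) or total cells 5XFAD 1 (2.0%). In microglia, the count marked in both 5XFAD lists and no WT list, 1 as reported, was 0 in the higher-scoring 50% of peaks (3.64%) and 1 to 3 when 1 library was left out, 2 without 5XFAD 1 (4.86%) and 3 without WT 2 (8.94%). The opposite count, 0 as reported, was 1 with lists of equal length (1.6%), 1 in the higher-scoring 50% (0.667%), and 0 to 1 when 1 library was left out, the 1 without 5XFAD 2 (2.07%). The count higher in both 5XFAD microglia libraries, 6 as reported, was 3 in the higher-scoring 50% (16.1%). In total cells, the count marked in both 5XFAD lists and no WT list, 0 as reported, was 1 with no flank (2.88%), with 2 kb (2.86%) or 25 kb (2.16%) and around start sites (2.76%), and 0 to 2 when 1 library was left out, 1 without 5XFAD 2 (6.04%), 2 without WT 1 (6.45%) and 1 without WT 2 (5.16%). The opposite count was 1 in the higher-scoring 50% (1.91%). The count higher in both 5XFAD total cells libraries, 2 as reported, was 1 with no flank (14.9%), a 2 kb flank (16.6%), fixed width (9.73%), scaled coverage (13.2%) or start-site windows (11.4%). It was 3 with a 25 kb flank, where Itgax was added (22.0%), and 3 with a score of at least 50 (16.1%) or the higher-scoring 50% (15.0%), where Cd9 was added against its reported direction. It was 2 to 4 when 1 library was left out, the 4 without 5XFAD 2 (43.1%). Pairs of gene and library with a peak numbered 52, and 23 around start sites. The cause of these shifts was not tested.

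No difference passed after adjustment, and the genotype test could not, so these signs say nothing about the stability of a call. The genotype difference over both preparations turned at Clec7a to -57 bp with a 25 kb flank, -194 bp with lists of equal length or the higher-scoring 50%, and, when 1 library was left out, spanned -194 to 280 bp (-194 bp without microglia 5XFAD 2, -153 bp without microglia WT 1, -29.8 bp without total cells WT 1). It turned at Cd63 to -141 bp in the higher-scoring 50%, and at Cd9 to -46.2 covered bases per Mb listed with scaled coverage, and it spanned -2 to 1614 bp when 1 library was left out, the -2 bp without microglia WT 1. The preparation difference at Clec7a was -6.69 bases per Mb with scaled coverage.

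The replicate numbers are not stated to mark a shared animal or day. Deviations of same-numbered libraries correlated at 0.766 between the microglia groups and 0.297 between the total cells groups, and at -0.548 to -0.238 between preparations. Replicate 2 had the longer list in both microglia groups and the shorter list in both total cells groups. The part of list length in these correlations was not tested. With the replicate block, 5 genes were higher in microglia in every pair (29.8% of all genes), 0 were lower (2.31%), and 0 passed after adjustment in either comparison. With crossed pairing across preparations the counts were 5 (34.3%), 0 (3.03%) and 0. Depth is unknown, so an unlisted peak cannot be told from a weak one.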
